A study of Macaca mulatta with 304 samples.

Results

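The genes described here, 9 in number, code for proteins of the red cell membrane and of the spectrin skeleton beneath it: SLC4A1, RHAG, KEL, GYPC, ANK1, EPB42, EPB41, SPTB and TMOD1. They were taken by symbol from a count table of 21070 genes, and all 9 were among the 13751 genes that passed a filter on low counts. A red cell keeps its shape because a mesh of spectrin and short actin filaments hangs from proteins that cross the membrane. Ankyrin and protein 4.2 tie this mesh to the anion exchanger band 3, and protein 4.1 ties it to glycophorin C. Inherited faults in several of these proteins give spherical or elliptical red cells that break down early. In blood, transcripts of red cell genes come largely from reticulocytes, the youngest red cells, while GYPC and EPB41 are also transcribed in many other cell types.

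Whole blood came from 28 healthy adult rhesus macaques (Macaca mulatta, Chinese sub-strain, 14 females and 14 males) whose thorax was irradiated once, 12 at the lower dose (LD, 9.8 Gy) and 16 at the higher dose (HD, 10.7 Gy). The controls were samples taken from 24 of these animals on Day -2, before irradiation, and the other 4 animals, all HD, had no control sample. Draws on Days 3 to 60 covered 24 to 28 animals each, later draws 17 on Day 90, 14 on Day 120, 9 on Day 150 and 6 from Day 180 to Day 270, 5 of these LD. For irradiation the animals received the antiemetic ondansetron and were anesthetized with ketamine and xylazine. All animals were bled repeatedly and received the analgesic tramadol or buprenorphine in the first weeks, and fast breathing was treated with dexamethasone. No unirradiated animal was followed over the same days, so irradiation, bleeding, drugs, time and the loss of animals cannot be told apart in a comparison with the controls.

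The 296 libraries of scheduled days and 8 of other days held 2840219 to 23638161 counts, with a median of 8227563. The sample descriptions carry a library number, which is 0 in 150 libraries and falls into a low range in 120 and a high range in 34. The labels do not say what this number marks or whether 0 is a missing number. The number 0 is treated here as a range of its own, and libraries of 1 range need not share a batch. On Days 3 to 15 each animal's library was in the same range as its control. This held for 16 of 24 animals on Day 21, for 4 on Day 30 as on Day 40, and for none from Day 120 on, so that late samples and controls differ in range as well as in time. The library of animal B2007 on Day 40, its last draw, stood apart: globin and heme synthesis genes took 11.9% of its counts, against at most 1.17% in the controls, and results that rest on it are given with and without it.

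The genes lie on 8 chromosomes of the assembly Mmul_10, on which the counts were made. For each, the 250 bases before the annotated gene start (RefSeq annotation) were searched on both strands for the words AGATAA or AGATAG and for TGATAA or TGATAG, which the red cell transcription factor GATA1 can bind. At least 1 word occurred in the windows of 5 of the 9 genes, RHAG, EPB42, EPB41 and SPTB among them, and in 21.1% of 20782 gene windows. The words CCACACCC and CCGCACCC, which the erythroid factor KLF1 can bind, were in 0 of the 9 windows and in 5.05% of all. The windows of RHAG and EPB42 are shown as 2 examples of windows that hold a word. They lie at chr4:119866139-119866388 (plus strand) and chr7:19720927-19721176 (minus strand), and are written 5′ to 3′ toward the gene, with the words or their reverse complements in capitals:
RHAG: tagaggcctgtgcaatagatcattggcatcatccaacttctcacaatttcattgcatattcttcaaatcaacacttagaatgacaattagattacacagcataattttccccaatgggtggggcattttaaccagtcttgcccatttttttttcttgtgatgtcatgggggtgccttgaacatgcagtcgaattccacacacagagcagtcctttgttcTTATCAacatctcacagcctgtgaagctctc
EPB42: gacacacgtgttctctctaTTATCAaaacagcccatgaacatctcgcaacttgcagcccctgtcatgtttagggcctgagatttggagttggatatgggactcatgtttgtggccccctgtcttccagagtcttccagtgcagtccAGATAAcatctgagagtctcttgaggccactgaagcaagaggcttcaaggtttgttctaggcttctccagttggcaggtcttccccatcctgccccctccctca
The word in RHAG began 31 bases before the gene start, and EPB42 held 1 word on each strand. A word is a description of the letters, not a site of binding. Only the outermost start of each gene was searched. ANK1 has 9 annotated transcript starts, EPB41 7, KEL 6, GYPC 4 and SPTB 3, and the windows before their inner starts were not examined.

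SLC4A1 lies on chromosome 16 (55510407 to 55531543), KEL on chromosome 3 (169523468 to 169548146), GYPC on chromosome 12 (4189760 to 4266225), EPB41 on chromosome 1 (195561876 to 195800718), ANK1 on chromosome 8 (42230677 to 42474012) and TMOD1 on chromosome 15 (45320563 to 45419618), all on the minus strand. EPB42 (19695837 to 19720926) and SPTB (126808714 to 126945829) share the minus strand of chromosome 7, and RHAG lies on the plus strand of chromosome 4 (119866389 to 119896450). Exon bases are shared with a gene of the opposite strand by RHAG (LOC106997963), EPB41 (TMEM200B) and TMOD1 (TSTD2). The strand setting of the counting is not given in the sources used here, so the values of these 3 genes may include reads of the partner.

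Before irradiation SLC4A1, which exchanges chloride for bicarbonate, and EPB41, the protein 4.1 gene, had the highest levels per length. Levels are given as CPM, counts relative to the scaled size of the library, here divided by the exon length in kilobases. The control medians were 128.3 for SLC4A1, 115.7 for EPB41, 37.8 for EPB42, 21.5 for TMOD1, 14.9 for GYPC, 5.68 for SPTB, 3.14 for ANK1, 2.55 for RHAG and 0.872 for KEL. The ranges over the 24 controls overlapped between all neighbours in this order. The controls themselves differed widely: SLC4A1 ran from 10.3 to 469.5 CPM per kilobase, GYPC only from 8.42 to 26.4.

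In the first month after irradiation most of the genes were upregulated against the animals' own controls, all 9 of them on Day 15. A gene is called changed here when it reached a fold of 1.5 or more with an adjusted p no higher than 0.05, by edgeR's quasi-likelihood fit, in which each animal formed a block and Benjamini-Hochberg adjustment ran over all genes tested. The early counts were 6 of 9 genes higher on Day 3 (of all genes 6.89% were called higher and 4.62% lower), 7 on Day 6 (6.04% and 5.48%) and 6 on Day 9 (5.15% and 2.43%). All 9 were called on Day 15 (5.11% and 0.894%), 8 on Day 21 (7.65% and 2.73%) and 9 on Day 30 (4.57% and 1.33%). Among animals whose library was in the range of their control, 8 genes were called higher on Day 21 and 4 on Day 30. These animals numbered 16 on Day 21 and 4 on Day 30, the latter all HD. The share of all genes called among them is not given here, so these counts have no background beside them. No member was called lower on any of the 15 days. The median log2 fold changes of the 9 genes were 0.87, 1.10, 0.74, 1.56, 1.24 and 0.98 for Days 3, 6, 9, 15, 21 and 30 in turn, and those of all genes lay between -0.06 and 0.001. In bulk blood more cells of a type and more RNA per cell cannot be told apart.

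**Figure D1:**
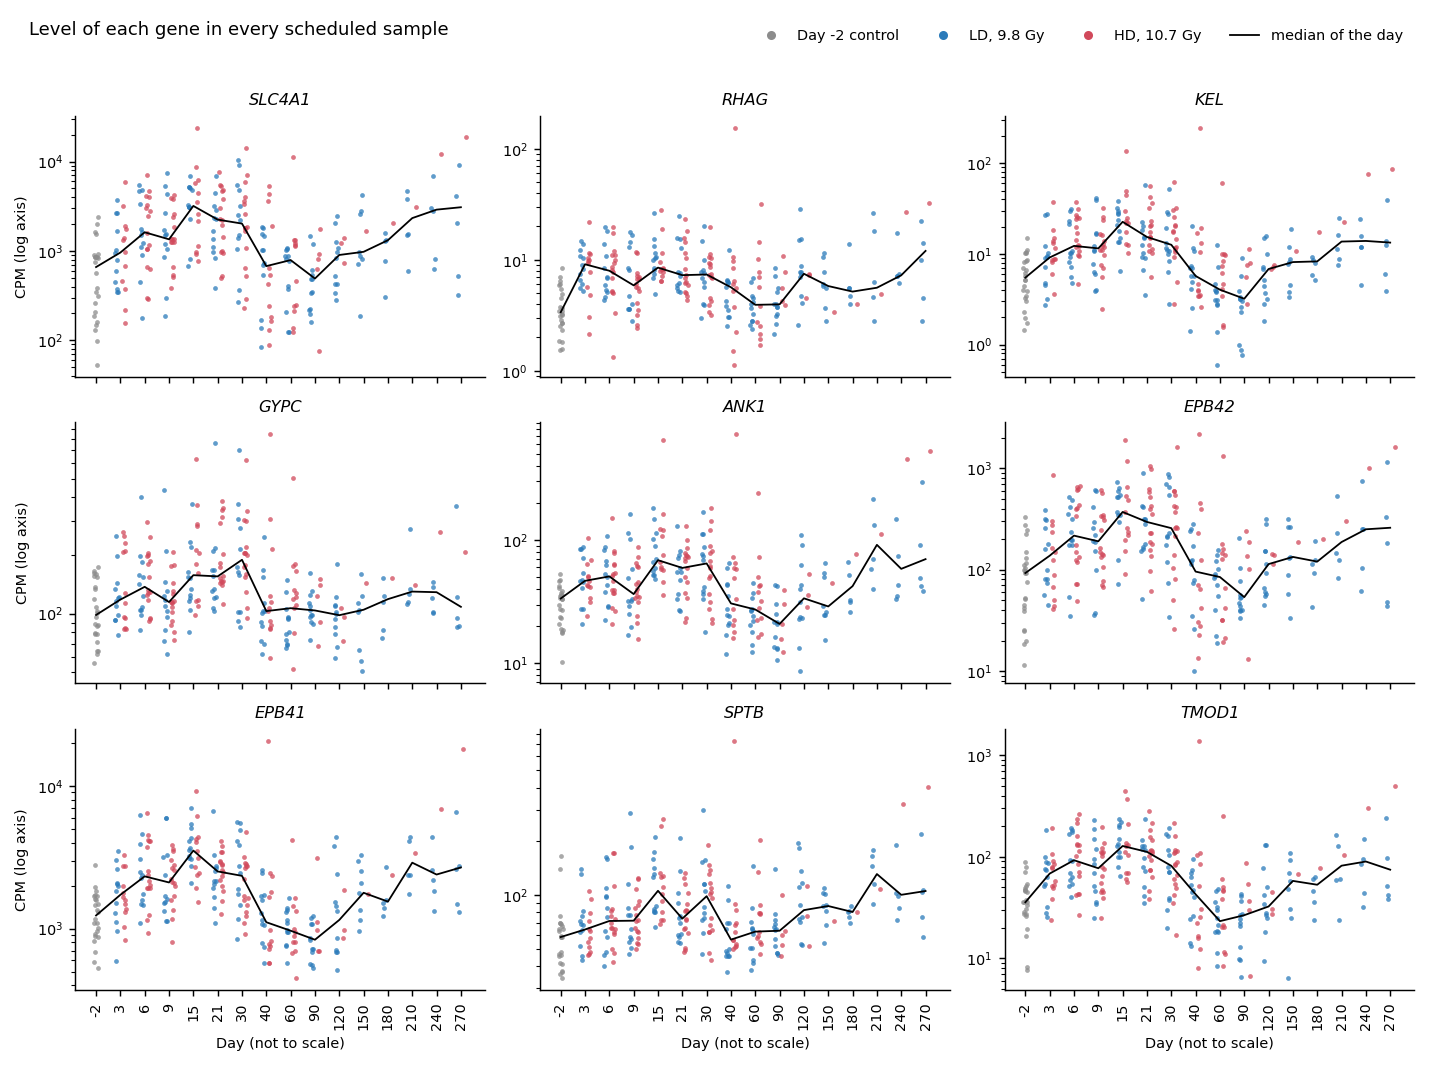
Level of each gene in every scheduled sample, in CPM on a log axis, against the day of the draw; points are samples (grey, controls; blue, LD; red, HD) and the line joins the medians of the days. The SLC4A1 median went from 660.0 CPM in the controls to 3186 on Day 15, 491.2 on Day 90 and 2329 on Day 210.

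SLC4A1, the band 3 gene, had the largest fold change of the 9 genes on Day 15. It was at 53.2, 660.0 and 2415 CPM in the lowest, median and highest control and at 685.5, 3186 and 23880 CPM on Day 15. All 24 of 24 animals were above their own control on that day, while 8 of 24 samples were within the range of the controls. The fold change was 6.28 (log2 2.65 ± 0.23, where ± gives the standard error here and in all fold changes that follow; edgeR adjusted p = 1.83e-10), after 1.99 on Day 3 (adjusted p = 9.72e-07) and 2.90 on Day 6 (adjusted p = 3.44e-08). On Day 15 SLC4A1 was the most changed of the 9 genes in 19 of 24 animals.

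RHAG, the core of the Rh complex that carries ammonium, differed in its timing. It was at 1.55, 3.37 and 8.501 CPM in the lowest, median and highest control and at 2.13, 9.13 and 22.02 CPM on Day 3, when 13 of 24 samples lay above all controls and 22 of 24 animals above their own. Its log2 fold change was 1.21 ± 0.14 on Day 3 (edgeR adjusted p = 2.42e-08), the largest of the 9 on that day, and 1.47 ± 0.14 on Day 15 (adjusted p = 1.45e-09). Within animals RHAG was the most changed gene in 11 of 24 on Day 3 and in 1 on Day 15.

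KEL codes for the Kell blood group protein, a surface endopeptidase. Its controls were at 1.43, 5.47 and 14.9 CPM (lowest, median and highest) and its Day 15 samples at 6.401, 22.6 and 137.2 CPM, higher in 24 of 24 animals and above all controls in 18 of 24. The fold change was 4.24 (log2 2.08 ± 0.18; edgeR adjusted p = 2.8e-10). GYPC, the glycophorin that protein 4.1 holds, changed least on Day 15 and was called later than the other surface genes. It was at 55.8, 98.5 and 174.6 CPM in the controls, at 80.5, 158.2 and 634.9 on Day 15 and at 84.9, 190.0 and 701.5 on Day 30. On Days 3, 6 and 9 its log2 fold changes of 0.36, 0.49 and 0.24 were under the fold threshold, and it was called on Day 15 (0.76 ± 0.10), Day 21 (0.82 ± 0.11) and Day 30 (0.91 ± 0.14; adjusted p = 1.53e-05).

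**Figure D2:**
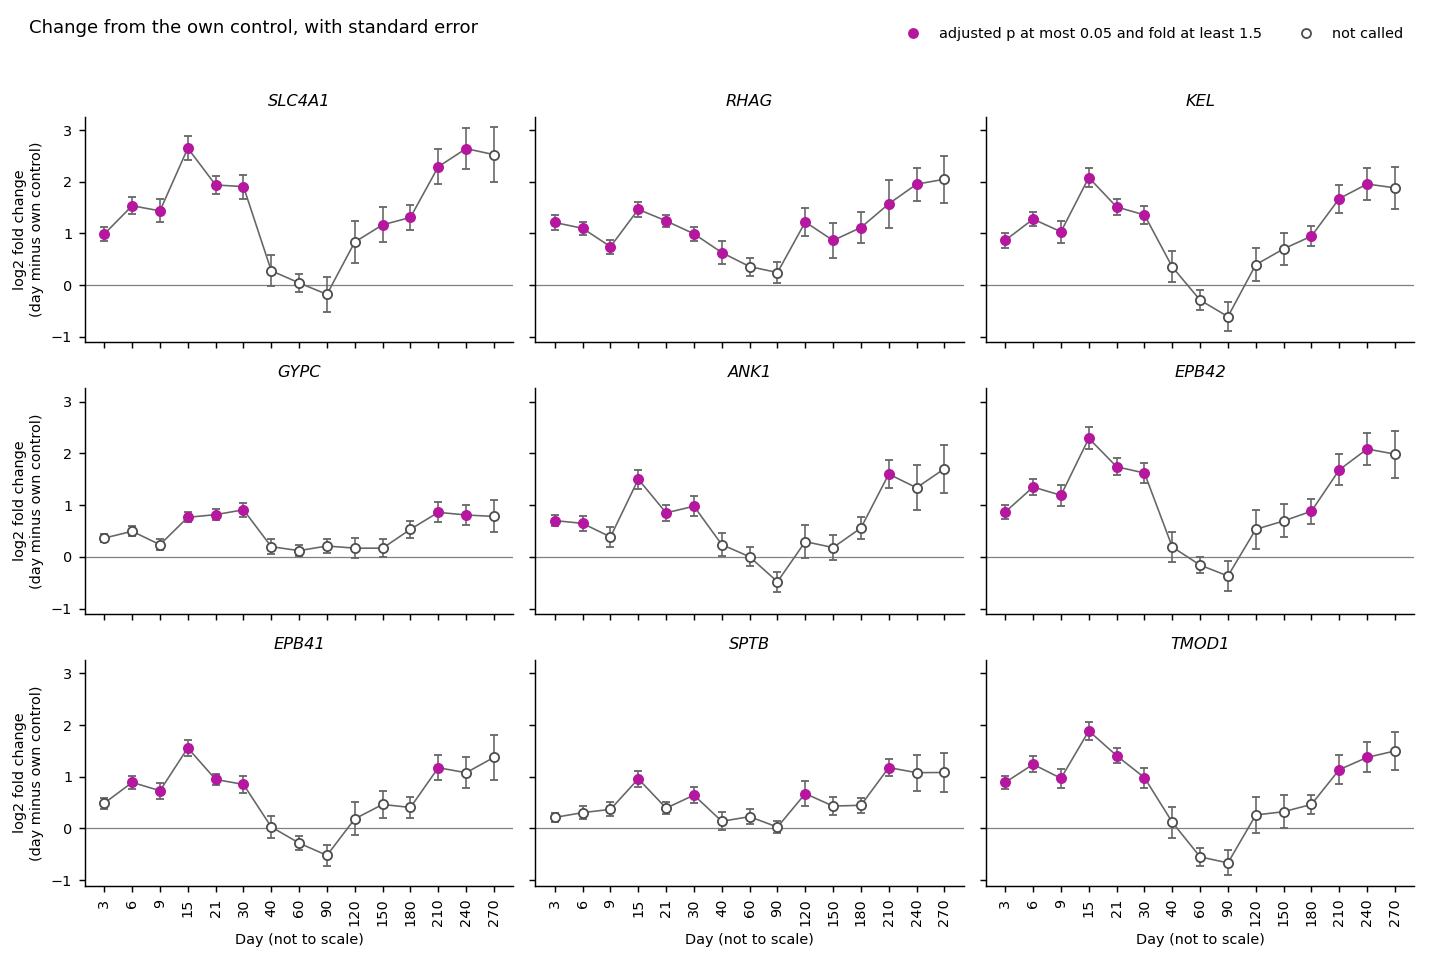
Log2 fold change of each gene from the animals' own controls, with its standard error, against the day; filled points passed an adjusted p of 0.05 and a fold of 1.5. On Day 15 SLC4A1 stood at 2.65, EPB42 at 2.29 and KEL at 2.08, and GYPC at 0.76.

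Of the adaptors, EPB42 codes for protein 4.2, which steadies band 3 on ankyrin. It was at 11.5, 92.5 and 333.8 CPM in the lowest, median and highest control and at 72.8, 370.0 and 1899 CPM on Day 15, higher in 24 of 24 animals, with a fold change of 4.90 (log2 2.29 ± 0.21; edgeR adjusted p = 7.48e-10). ANK1, the ankyrin that links band 3 to spectrin, was at 10.2, 33.6 and 53.1 CPM in the controls and at 36.1, 68.7 and 645.1 CPM on Day 15, when 19 of 24 samples lay above all controls. Its fold change was 2.83 on Day 15 (adjusted p = 1.18e-07), and on Day 9 its log2 fold change of 0.38 ± 0.19 was not called (adjusted p = 0.0892). EPB41 was at 529.5, 1237 and 2771 CPM in the controls and at 1545, 3524 and 9290 CPM on Day 15, a fold change of 2.95 (log2 1.56 ± 0.16; adjusted p = 4.43e-09). On Day 3 EPB41 passed the threshold on p but not that on fold (log2 0.49 ± 0.10).

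The skeleton genes proper differed from each other. TMOD1 codes for tropomodulin, which caps the pointed ends of the actin filaments. It was at 7.78, 35.7 and 89.5 CPM in the controls and at 56.9, 127.7 and 441.2 CPM on Day 15, with 24 of 24 animals higher and a fold change of 3.70 (log2 1.89 ± 0.18; edgeR adjusted p = 1.59e-09). SPTB, the beta chain of spectrin, was at 34.3, 58.2 and 164.6 CPM in the controls and at 66.2, 105.7 and 266.0 CPM on Day 15. The groups overlapped more than for the other genes: 4 of 24 samples lay above all controls and 22 of 24 animals above their own, with a fold change of 1.95 (log2 0.96 ± 0.16; adjusted p = 1.42e-05). In the first month SPTB was called on Day 15 and on Day 30 (0.65 ± 0.15), and stood at 0.21, 0.31, 0.37 and 0.39 on Days 3, 6, 9 and 21.

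The animals differed in size of response rather than in its direction on Day 15. The median over the 9 genes of log2 CPM minus the own control was 0.70, 1.43 and 3.70 in the lowest, median and highest of 24 animals, and 22 animals had all 9 genes above their control. The highest was the HD animal B2504. Together the 9 genes took a median of 0.219% of all counts in the controls, 0.729% on Day 15, 0.17% on Day 90 and 0.614% on Day 210.

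Between neighbouring draws, which involve no control, 7 genes rose from Day 9 to Day 15 (2.64% of all genes were called higher). SLC4A1 rose by 1.21 ± 0.19 on the log2 scale in 21 of 24 animals (edgeR adjusted p = 0.000282) and EPB42 by 1.10 ± 0.18, and SPTB and GYPC passed the threshold on p but not that on fold. From Day 15 to Day 21 4 genes fell, against 0.524% of all genes called lower: SLC4A1 (-0.73 ± 0.16), ANK1 (-0.68 ± 0.16), EPB41 (-0.62 ± 0.13) and KEL (-0.60 ± 0.14). GYPC changed by 0.05 over this step. The highest draw of an animal up to Day 40 was that of Day 15 in 11 of 24 animals for SLC4A1 and in 13 for EPB41, but that of Day 30 in 9 for GYPC, where Day 15 was highest in 4. For RHAG it was Day 15 in 7 and Day 3 in 5.

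The high levels ended between Day 30 and Day 40, when 7 of the 9 genes fell (3.39% of all genes were called lower). SLC4A1 was at 229.1, 2022 and 14140 CPM in the lowest, median and highest Day 30 sample and at 84.2, 676.2 and 5380 CPM on Day 40. It was lower in 21 of 24 animals, with a log2 change of -1.60 ± 0.26 (edgeR adjusted p = 4.91e-05). EPB42 changed by -1.38 ± 0.27 and KEL by -0.99 ± 0.27, and RHAG and SPTB were not called. Without the library of B2007 7 genes were called as well (SLC4A1 -1.72 ± 0.23), where 539 of the 13751 genes tested were called lower. Among the animals with both draws in 1 library range, 6 were called. All 28 libraries of Day 30 carried the library number 0, but only 13 of 24 on Day 40. Without the animal as a block only 1 was called. The shares of all genes called in these 2 alternatives are not given here.

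From Day 40 to Day 90 few of the genes differed from the controls. On Day 40 RHAG alone was called, 1 gene against 4.07% of all genes higher and 2.85% lower, with a log2 fold change of 0.63 ± 0.23 (edgeR adjusted p = 0.026). RHAG was at 1.13, 5.66 and 155.1 CPM in the lowest, median and highest Day 40 sample, and the highest was that of B2007, without which the log2 fold change was 0.47 ± 0.15, under the fold threshold. By edgeR no member was called on Day 60 (2.31% of all genes higher, 1.92% lower) or on Day 90 (3.87% and 3.19%). An unadjusted edgeR p under 0.05 was reached by 3 members on Day 60 and by 4 on Day 90. Of the 13751 genes tested, 4678 and 4982 reached it on these days. DESeq2 called 0 on Day 60 and 1 lower on Day 90.

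TMOD1 had the lowest log2 fold changes of the 9 genes on Days 60 and 90. It was at 8.38, 23.3 and 253.0 CPM (lowest, median and highest) on Day 60 and lower than the own control in 15 of 21 animals, with a log2 fold change of -0.55 ± 0.17 (edgeR adjusted p = 0.0267) that missed the fold threshold. The Day 60 library of B2501 held the highest TMOD1 and SLC4A1 levels of that day (253.0 and 11270 CPM), and without it TMOD1 was called lower at -0.65 ± 0.15 (adjusted p = 0.00644). On Day 90 the log2 fold changes ran from -0.67 for TMOD1 (adjusted p = 0.0549; lower in 12 of 15 animals) to 0.24 for RHAG.

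**Figure D3:**
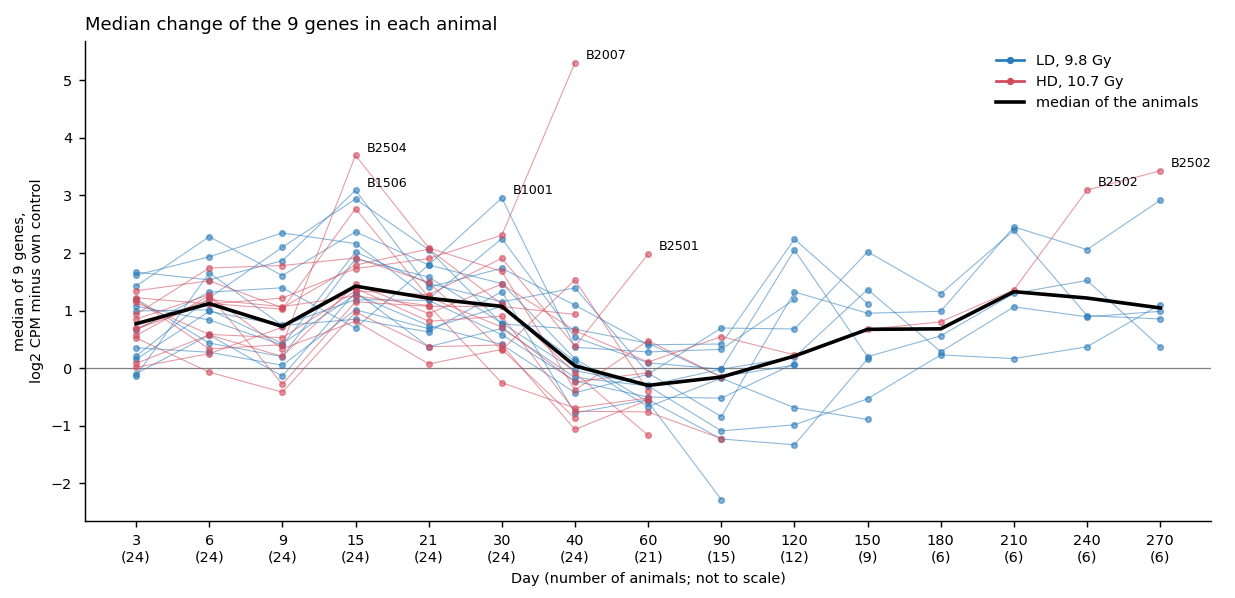
Median over the 9 genes of log2 CPM minus the own control, for each animal on each scheduled day; blue lines are LD animals, red lines HD animals, the black line their median, and the animals are counted in brackets. The median was above 0 in 24 of 24 animals on Day 15, 12 of 24 on Day 40, 4 of 15 on Day 90 and 6 of 6 on Day 210, and the Day 40 library of B2007 stood at 5.31.

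After Day 90 levels above the controls returned. On Day 120 the 2 genes called were RHAG (1.22 ± 0.28) and SPTB (0.67 ± 0.24), in a comparison where 12.7% of all genes were higher and 19.1% lower. On Day 150 they were SLC4A1 and RHAG, 2 genes (12% and 19.5%). Read against these shares, neither count sets the 9 genes apart. On Day 180 SLC4A1, RHAG, EPB42 and KEL were called, 4 genes (8.81% and 9.86%), on Day 210 all 9 (12.8% and 16.9%), and on Day 240 6, all but ANK1, EPB41 and SPTB (3.26% and 3.51%).

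On Day 210 SLC4A1 was at 600.1, 2329 and 4731 CPM in the lowest, median and highest of 6 samples, higher than the own control in 6 of 6 animals, with a log2 fold change of 2.29 ± 0.34 (edgeR adjusted p = 0.000475). SPTB, low among the 9 genes in the first month, was at 88.7, 131.2 and 179.8 CPM, and its log2 fold change of 1.18 ± 0.16 (adjusted p = 0.000294) was its largest of all days. ANK1 was at 39.9, 91.6 and 214.5 CPM, above all controls in 5 of 6 samples, with 1.60 ± 0.27 (adjusted p = 0.00106). All libraries of Day 180 and Day 210 carried the library number 0, and 6 genes rose over this step, against 3.05% of all genes called higher. Each of SLC4A1 (0.98 ± 0.19), ANK1 (1.04 ± 0.19; edgeR adjusted p = 0.0126), SPTB, EPB42, EPB41 and TMOD1 was higher in 6 of 6 animals.

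The other genes were also high on Day 210. EPB42 was at 83.04, 187.0 and 531.9 CPM in the lowest, median and highest sample (log2 fold change 1.68 ± 0.30; edgeR adjusted p = 0.00121) and KEL at 7.46, 13.7 and 24.8 CPM (1.68 ± 0.27). Both were higher than the own control in 6 of 6 animals, and their samples overlapped the controls, with 1 of 6 above all of them for EPB42 and 3 of 6 for KEL. EPB41 was at 1749, 2899 and 4409 CPM (1.18 ± 0.24), TMOD1 at 24.1, 81.7 and 165.5 CPM (1.14 ± 0.29) and GYPC at 112.7, 130.1 and 273.5 CPM (0.86 ± 0.20). RHAG, at 2.8, 5.61 and 26.5 CPM (1.57 ± 0.46), was higher in 5 of 6 animals, as was TMOD1. Within animals SLC4A1 was the most changed of the 9 genes in 5 of 6.

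From Day 90 to Day 120 RHAG (0.78 ± 0.26) and SPTB (0.60 ± 0.17) rose, 2 genes against 7.79% of all. Over the other 9 steps between neighbouring draws no member was called, and the shares of all genes called in either direction were 2.39% from Day 3 to 6, 4.6% from Day 6 to 9, 7.09% from Day 21 to 30, 2.66% from Day 40 to 60, 0.32% from Day 60 to 90, 12.8% from Day 210 to 240 and 0% over the 3 steps from Day 120 to 150, Day 150 to 180 and Day 240 to 270. At an unadjusted edgeR p under 0.05 the members numbered 5 from Day 3 to 6 as from Day 6 to 9, 3 from Day 21 to 30, 2 from Day 40 to 60, 1 from Day 60 to 90 and 0 in the later steps. Of the 13751 genes tested, 5479, 8762, 7543, 4179 and 2218 were under 0.05 over the earlier of these steps in turn. In the later steps the number was 767 to 4335.

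On Day 270 none of the 9 genes was called by edgeR, where 0% of all genes were called higher and 0.00727% lower. The median log2 fold change of the 9 genes was nevertheless 1.71, and SLC4A1 was higher in 6 of 6 animals (log2 2.53 ± 0.54; adjusted p = 0.0751). It ran from 321.2 to 18780 CPM, a wide spread for 6 samples. All 9 members had an unadjusted edgeR p under 0.05, as did 4060 of the 13751 genes tested. DESeq2 called 8 members, and a single fit over all days called 9. The shares of all genes called by these 2 alternatives are not given here. In simulated counts of 6 animals DESeq2 gave more false calls than edgeR, 38 against 14. Leaving out B1003 gave 6 calls of members, where 1351 of all genes were called, and leaving out any other animal gave 0. The HD animal B2502 had the highest median change on Days 240 and 270, 3.10 and 3.43.

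The 6 animals followed to Day 270 allow early and late draws of the same animals to be set side by side. In them the median log2 fold changes of the 9 genes were 0.93, 1.59, -0.03, 0.57 and 1.57 on Days 3, 15, 60, 120 and 210. All 9 genes were called on Day 15 in these animals alone, against 3.93% of all genes. Early and late changes share the control samples, and their difference was not tested. In a single fit with the library range as a term, 8 genes were called higher on Day 210 and 1 on Day 180. The share of all genes called in this fit is not given here, so these counts have no background beside them.

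Between the doses, no member was called for a difference in its change from the control on Days 3 to 40 or on Day 90 by edgeR's interaction test, in which 0% of all genes were called on each of these days but Day 40 (0.0364%). The differences, HD minus LD, ran from -0.58 to 0.63 on the log2 scale, and their 95% intervals reached from -1.74 to 1.68. For Day 15 alone the intervals reached from -0.88 to 0.98, and sizes within these bounds could not be told from 0. Of the 9 members 0 had an unadjusted p under 0.05 on each of these days, and DESeq2 called 0. The highest of these differences was that of SPTB on Day 40, and it rested in part on the library of B2007: it was 0.63 ± 0.34 with this library and 0.39 ± 0.18 without it (unadjusted p = 0.0719 and 0.0398, edgeR adjusted p = 0.315 and 0.245). Without it the Day 40 differences ran from -0.62 to 0.39, and SPTB was the 1 member with an unadjusted p under 0.05. On Day 60 1 gene, SPTB, was called, where 10.5% of all genes were called higher, so this count does not set the 9 genes apart.

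SPTB was at 38.2, 61.6 and 145.9 CPM in the lowest, median and highest LD sample of Day 60 and at 46.8, 70.3 and 204.3 CPM in the HD samples, so that the groups overlapped. It was above the own control in 5 of 12 LD animals and in 7 of 9 HD animals. The difference was 0.74 ± 0.25 (edgeR adjusted p = 0.0249), and without the library of B2501 0.60 ± 0.23 (adjusted p = 0.0616).

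Compared directly among the Day 60 samples, 3 genes were higher at the higher dose, ANK1 (0.94 ± 0.35), KEL (1.21 ± 0.44) and GYPC (0.69 ± 0.25), against 9.24% of all genes. Without the library of B2501 none was called (KEL 0.62 ± 0.34; edgeR adjusted p = 0.175). On the other 8 days compared, Days 3 to 40 and Day 90, no member was called, and neither was any of all genes (0%) except on Day 21 (0.153%). On these days 0 to 2 members had an unadjusted p under 0.05, the highest number on Day 40, for ANK1 (1.45 ± 0.61) and KEL (1.67 ± 0.78). Without the library of B2007 these were 0.30 ± 0.24 and -0.04 ± 0.30, and 0 members were under 0.05. The later days, with 3 HD animals or fewer, were not compared by dose.

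Between the sexes no member was called for a difference in its change from the control on any of 11 days by edgeR's interaction test, with 0% of all genes called on each day but Day 30 (0.0291%). The lowest adjusted p of a member was 0.0822, on Day 30, when DESeq2 called 1 member. With all libraries at most 1 member had an unadjusted p under 0.05 on any of these days. For Day 15 the differences, male minus female, ran from -0.49 to -0.14, with 95% intervals from -1.19 to 0.68. On Day 40 the mean log2 change of SLC4A1 was 0.78 in females and 0.01 in males. The fitted difference was -1.09 ± 0.57, and -1.38 ± 0.34 without the library of B2007, a male (edgeR adjusted p = 0.0556). Without this library the differences of all 9 genes were below 0, from -1.38 to -0.18, and 7 of the 9, all but RHAG and SPTB, had an unadjusted p under 0.05. EPB42 stood at -1.18 ± 0.30 (adjusted p = 0.0601), KEL at -1.08 ± 0.30 and TMOD1 at -1.09 ± 0.32, and none was called, where 0.604% of all genes were.

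Across samples most of the 9 genes moved together. Over all scheduled and other samples, which come from 28 animals and share libraries and the total RNA of blood, the correlation between members of log2 CPM less the mean of each animal had a median of 0.7495 over 36 pairs, from 0.492 to 0.984. On the same values, the correlation of a gene with the mean of the other 8 was 0.959 for EPB42, 0.948 for KEL, 0.944 for SLC4A1 as for EPB41, 0.935 for TMOD1 and 0.9 for ANK1, and lower for RHAG (0.755), GYPC (0.737) and SPTB (0.73). The genes outside the list most like the mean of the 9 were BCL2L1 (0.979), RANBP10 (0.976), MPP1 (0.975), TMCC2 (0.974) and ASCC2 (0.973). BCL2L1 codes for the survival protein Bcl-xL, and MPP1 for p55, which binds glycophorin C and protein 4.1. Their log2 fold changes on Days 30, 60 and 210 were 1.40, 0.02 and 1.97 for BCL2L1 and 1.05, -0.12 and 1.24 for MPP1.

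Other red cell membrane genes moved in part with the members. Of 47 tested, 23 were called higher and 0 lower on Day 15 (median log2 fold change 0.57), 2 and 2 on Day 60 (-0.12), and 18 and 2 on Day 210 (0.51). By class, the Day 15 counts were 4 of 10 skeleton genes, 11 of 17 glycophorins and blood group proteins, 7 of 17 transporters, channels and pumps, and 1 of 3 receptors lost on maturation. Among the highest on Day 6 were ADD2 (1.59 ± 0.20), the beta-adducin gene, and XK (1.43 ± 0.14), the partner of the Kell protein. The lowest on Day 6 were the transporter gene SLC12A4 (-0.35 ± 0.10), ADD1 (-0.32 ± 0.07) and the potassium channel gene KCNN4 (-0.32 ± 0.09), all under the fold threshold. KCNN4 was called lower on each scheduled day from Day 40 to Day 180, at -1.46 ± 0.30 on Day 120 (edgeR adjusted p = 0.001). On Day 120 19.1% of all genes were called lower. SLC12A4 and ADD1 were not called on any day.

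DMTN, which bundles actin under the membrane, stood at 2.36 ± 0.20 on Day 15 and at 1.99 ± 0.31 on Day 210 (edgeR adjusted p = 1.55e-10 and 0.000634).

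**Figure D4:**
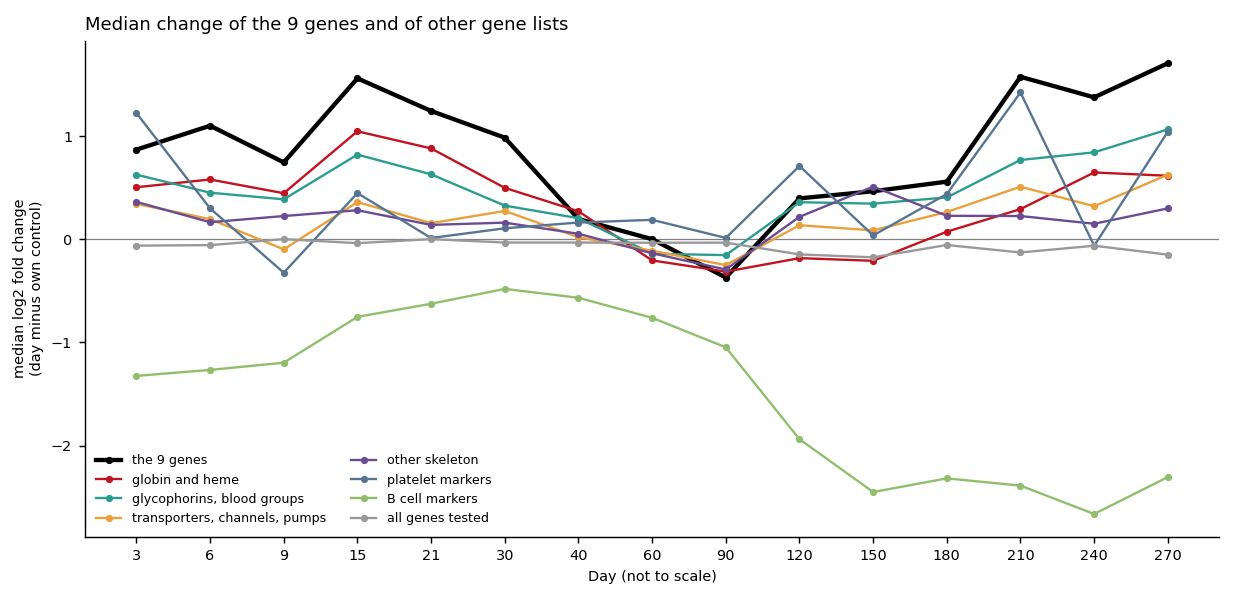
Median log2 fold change from the own control against the day, for the 9 genes (black), other lists of red cell genes, platelet and B cell markers and all genes tested (grey). On Day 15 the 9 genes stood at 1.56 and globin and heme genes at 1.05, and on Day 210 at 1.57 and 0.29.

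Globin and heme synthesis genes, which red cell precursors and reticulocytes transcribe, were higher with the members on Day 15, 12 of 14 called (median 1.05). On Day 210 4 were called higher and 2 lower (median 0.29), where the median of the 9 genes was 1.57. The list was split on that day. The 4 higher were SLC25A37 (1.655), FECH (1.48), ALAS2 (1.31) and AHSP (1.24), within the range of the members. The 2 lower were the globin genes HBA (-1.49) and HBB (-1.63), and the others were not called.

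The globin genes HBA and HBB, named after their values were seen, did not move with the members on all days. They stood at 3.25 ± 0.18 and 3.22 ± 0.23 on Day 21, at -1.39 ± 0.34 and -1.36 ± 0.35 on Day 30, when both were called lower (edgeR adjusted p = 0.00268 and 0.0044), at 1.82 and 2.06 on Day 40 and at -2.04 and -2.54 on Day 60. On Day 30 all 9 members were called higher, and of the globin and heme list 6 genes were higher and 2, these globins, lower. All 28 libraries of Day 30 carried the library number 0, as 4 of the 24 controls did. In the 4 animals whose control was in the same range, all HD, HBA stood at 1.08 ± 0.43 and HBB at 1.38 ± 0.35 on Day 30 (edgeR adjusted p = 0.14 and 0.0249). On Day 40 HBA and HBB stood at -1.11 ± 0.69 and -0.54 ± 0.47 in these animals (adjusted p = 0.355 and 0.518). The sign of the globin estimates on both days thus differed between all animals and those of 1 range, which also had 1 dose only. On Day 40 the estimates of these 4 animals were not called and could not be told from 0. SLC4A1 in the same animals stood at 1.28 ± 0.27 on Day 30 (adjusted p = 0.00989) and at -0.74 ± 0.52 on Day 40.

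Of 13 red cell markers 13 were called higher on Day 15, and 8 higher and 2 lower on Day 210. Their summed level was 1919 to 10770 CPM in the controls, 9065 to 75980 on Day 15 and 4940 to 23740 on Day 210.

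Markers of other blood cells moved on some of the same days. Of 7 platelet markers 7 were called higher on Day 3 (summed level 1900 to 9361 CPM, against 824.2 to 4302 in the controls), 1 on Day 15 and 6 on Day 210 (1282 to 8479 CPM). Of 6 B cell markers 6, 5 and 6 were called lower on Days 3, 15 and 210, with summed levels of 285.5 to 1882 CPM in the controls and 66.8 to 335.3 on Day 210. Of 7 neutrophil markers 0 were called higher on Day 15, 5 on Day 120 and 3 on Day 210 (median sum 2583 CPM in the controls and 6711 on Day 210), and 4 of 4 monocyte markers on Day 210. No list had a summed level of 0 in any group. Their part in the results for the 9 genes was not tested.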

How the data were processed

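Whole-blood RNA was sequenced after ribosomal RNA depletion with a stranded total RNA kit. Per the submitters' processing notes and the study's methods, the authors trimmed the reads with cutadapt 2.10, aligned them with STAR 2.7.6a to Mmul_10 and obtained raw gene counts with Subread 2.0.1, which they deposited. The strand setting of the counting is not given in the sources used here. The authors also deposited log2 values, described as scaled by upper quartile and normalized by conditional quantile normalization. In each sample genes of equal count share 1 log2 value there, so the table holds no correction per gene, and it was used only in an alternative.

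A gene was tested when 80% of all samples reached 3 counts for it. Upper-quartile scaled counts were fitted with edgeR 4.0.16 (glmQLFit, glmQLFTest), 1 fit for each comparison. CPM are on the same scaling, with a prior count of 2 for log2 CPM. Animal, day and dose came from the sample titles. An animal's sample and its control pair by design, and their deviations from the group means correlated with a median of 0.178 to 0.548 over the 15 days. Members of a group are different animals, and each day has 1 library for an animal. Counts of 0 pairs of libraries were identical, and 0 columns of the tables were left out as belonging to no sample. Summed levels of Y-linked genes did not overlap between animals labelled female and male.

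Alternatives were TMM and total-count scaling, other count filters, no block, DESeq2 1.42.0, limma 3.58.1 on the deposited log2 values, a single fit over all samples, 1 library range only, animals followed to Day 270, and leaving out animals or libraries. Tested on simulated data with 200 of 13751 genes changed 3-fold, edgeR recovered 200 for Day 6 against control and 192 for Day 240 against control, the latter with 14 false calls. DESeq2 recovered 200 and 186, the latter with 38 false calls.

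The 9 members and the gene lists were chosen with earlier results of these data known. Named by rule were all members, the 3 highest and 3 lowest genes of the other membrane list on Day 6, genes that define the red cell (DMTN), and the 5 genes most alike. Some items that this rule names, and 1 promoter window, are not reported here. EPB41L1, BCAM, HBZ and ELANE were listed but did not pass the filter, and GYPB, GYPE, RHD, HBD, PF4, CEACAM8, FCN1 and TRAT1 were not analysed here. Of the T cell and NK cell markers also listed, 0 and 0 were called higher and 0 and 0 lower on Day 15. On other days some were called. Of 5 T cell markers 3 were lower on Day 120 as on Day 150, and 2 on Day 210. Of 5 NK cell markers 3 were lower on Day 9, 1 was higher on Day 210 and 2 were higher on Day 240.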

Additional observations from a re-analysis of the deposited data

Results flagged for a closer look

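Groups of 4 to 10 samples, 54 sets of values, were examined for a sample far from the others by Dixon's test, which flags about 1 in 20 by chance. It marked 4 values, each the highest of 5 LD samples and each from animal B1503: RHAG on Day 180, 14 CPM against 5.62 in the next sample, RHAG on Day 240, 17.3 against 7.42 CPM, GYPC on Day 210, 273.5 against 133.4 CPM, and GYPC on Day 270, 358.8 CPM. On Day 180 the number of members called was 2 without B1503, where 1930 of the 13751 genes tested were called in either direction.

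The change of SPTB from the control differed between the doses on Day 60, by 0.74 on the log2 scale, in the test of the interaction, and was not called without the library of B2501 (0.60 ± 0.23; edgeR adjusted p = 0.0616). A call of 1 in 9 members is near the share of all genes called higher in this test, given above.

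Draws outside the schedule entered no comparison, and in some of them RHAG or GYPC was above the highest control. RHAG, at most 8.501 CPM in the controls, was at 9.09 CPM in B2004 on Day 71, 9.26 in B2501 on Day 77, 19.2 in B1001 on Day 127, 10.2 in B1002 on Day 160 and 12.1 in B1506 on Day 172. GYPC, at most 174.6 CPM in the controls, was at 294.9 CPM in B2501 on Day 77 and 197.1 CPM in B1002 on Day 160.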

How the results depend on the processing

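Under the alternatives, called values of single members kept direction and call in 922 refits, lost the call in 92 and reversed in 1, TMOD1 from Day 30 to Day 40, 0.24 without the replicate block. Counts of members called stayed within 1.5 times in 249 refits and moved further in 43. Without the replicate block, 4 were higher on Day 40, 0 on Day 150, 1 on Day 180 and 1 from Day 180 to 210, and 1 lower from Day 30 to 40. In the animals followed to Day 270, 1, 0, 2, 0, 0 and 1 were higher on Days 6, 9, 30, 40, 120 and 150, 0 from Day 90 to 120, and 7 lower from Day 15 to 21. Within 1 library range, which left 4 animals on each day, all HD, 4 members were higher on Day 30 and 0 on Day 40. DESeq2 gave 4 higher on Day 150, 8 on Day 270 and 4 from Day 90 to 120, 1 lower on Day 90 and 1 in the interaction with sex on Day 30, and limma 1 lower on Day 90. A single fit gave 3, 2 and 9 higher on Days 40, 180 and 270, and with the library range as a term 1 on Day 180 and 8 on Day 270. Scaling by total counts gave 1 higher on Day 120, 1 on Day 150 and 1 lower on Day 60. This scaling put the median log2 fold change of all genes on Day 270 at -0.45, against -0.15, and that of the members at 1.44, against 1.71. A filter of 10 counts gave 1 higher on Day 150, and no filter 6 on Day 270. Leaving out each animal in turn gave 1 to 3 on Day 150, 2 to 6 on Day 180, 8 to 9 on Day 210, 4 to 6 on Day 240 and 0 to 6 on Day 270. Alternatives added after seeing the data were the libraries left out: without that of B2007, 0 were higher on Day 40, and without that of B2501, 1 was lower on Day 60, 2 from Day 40 to 60, and 0 differed between doses on Day 60 in either comparison. Beyond the fewer samples or genes of some alternatives, the cause was not tested.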

Other observations

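In draws outside the schedule, 7 of which had a control of the same animal, the median over the 9 genes of log2 CPM minus the own control ran from -1.99 in B1504 on Day 102 to 2.20 in B1001 on Day 127. In B1001 and in B1506 on Day 172 (median 1.28) all 9 genes were above the own control, and in B1504 0 were. The medians were -0.60 in B2004 on Day 71, -0.03 in B2501 on Day 77, 0.19 in B2504 on Day 94 and -0.47 in B1002 on Day 160. Each is a single sample.

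In the Day 40 library of B2007 the members were unequally high. EPB41 was at 20710 CPM against 581.6 in the animal's control, KEL at 246.6 against 1.43, and GYPC at 847.5 against 96.2. The summed platelet markers of this library, 31080 CPM, were the highest of that day, and the summed T cell markers, 96.5 CPM, the lowest.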
